A study of Mus musculus with 6 samples.

Results

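The 6 genes Heca, Tmem255a, Gdpd2, Lnpep, Rbm41 and Egfem1 were taken from the 24421 genes of a count table of sorted prefrontal nuclei. They were chosen by their measured values in the comparison of CFA with saline libraries, as named genes that were lower in CFA, and no threshold defines the set. CPM is the gene's count over the library total, times 1e6, with TMM scaling of the totals. Since this comparison chose the genes, their difference between the groups is given as a description without a test. All 6 genes passed the filter on low counts, which kept 13560 genes.

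The libraries came from Foxp2-Cre mice that carried an adeno-associated virus expressing GFP with a KASH domain, which anchors the protein in the nuclear envelope. The virus had been injected into the medial prefrontal cortex on both sides 4 weeks before collection, and the labels call the sorted cells Foxp2 positive neurons. Foxp2 marks corticothalamic neurons of the deep layers, and the sort covers nuclei that the virus reached; whether its expression needed Cre is not said in the labels. The 3 CFA libraries came from mice given complete Freund's adjuvant (CFA, an emulsion that causes lasting inflammation and pain), and the 3 saline libraries from controls that carried the same driver and virus. The labels used here give neither the age and sex of the mice, nor the time from CFA to collection, nor whether a library pooled animals, so the spread between libraries may be partly technical.

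The 6 genes belong to no common pathway. Heca encodes the mammalian counterpart of Headcase, a fly protein that acts with the RNA-binding protein Unkempt to restrain growth through mTOR complex 1. Lnpep encodes insulin-regulated aminopeptidase, a membrane enzyme that cleaves oxytocin, vasopressin and other peptides and travels in the vesicles that store the glucose transporter GLUT4. Gdpd2 encodes a membrane enzyme of the glycerophosphodiester phosphodiesterase family, whose members act on glycerophospholipids and on proteins with a lipid anchor. Rbm41 encodes an RNA-binding protein of the minor spliceosome, which removes a rare class of introns. Tmem255a encodes a membrane protein and Egfem1 a protein with EGF-like and EMI domains, and the functions of both are little described.

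The stretches before the transcript starts are shown for 4 genes, namely the genes with the largest fold difference (Heca and Tmem255a), the one with the smallest ratio between the closest libraries (Gdpd2) and the peptidase gene Lnpep. Each is the 250 bases upstream of the start in RefSeq (GRCm38.p6, the assembly of mm10), written 5′ to 3′ on the strand of the gene. All 6 genes had an entry, with 2 starts each for Gdpd2 and Egfem1. In Heca (chr10:17948068-17948317, minus strand) the capitals mark TGACG, the core of the cyclic AMP response element (CRE) bound by CREB, on either strand. In Tmem255a (chrX:38252482-38252731, minus strand) they mark CCAAT, and in Gdpd2 (chrX:100729597-100729846, plus strand, the start used in the count table) CCAAT and TATAAA. In Lnpep (chr17:17624490-17624739, minus strand) they mark GGGCGG, the motif of Sp1.
Heca: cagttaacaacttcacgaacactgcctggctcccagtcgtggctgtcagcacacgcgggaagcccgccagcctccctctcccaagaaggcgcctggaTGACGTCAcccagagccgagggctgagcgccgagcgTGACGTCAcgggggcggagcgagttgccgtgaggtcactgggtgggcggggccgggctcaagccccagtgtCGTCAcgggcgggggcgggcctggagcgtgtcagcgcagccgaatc
Tmem255a: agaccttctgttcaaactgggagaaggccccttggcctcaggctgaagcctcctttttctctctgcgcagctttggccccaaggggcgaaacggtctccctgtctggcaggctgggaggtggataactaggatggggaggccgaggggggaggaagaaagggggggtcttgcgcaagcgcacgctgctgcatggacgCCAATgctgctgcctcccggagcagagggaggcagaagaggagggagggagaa
Gdpd2: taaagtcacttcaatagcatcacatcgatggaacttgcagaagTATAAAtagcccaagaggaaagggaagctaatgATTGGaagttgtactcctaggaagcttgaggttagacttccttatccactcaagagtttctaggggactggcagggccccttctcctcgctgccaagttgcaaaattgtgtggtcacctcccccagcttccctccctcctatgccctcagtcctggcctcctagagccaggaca
Lnpep: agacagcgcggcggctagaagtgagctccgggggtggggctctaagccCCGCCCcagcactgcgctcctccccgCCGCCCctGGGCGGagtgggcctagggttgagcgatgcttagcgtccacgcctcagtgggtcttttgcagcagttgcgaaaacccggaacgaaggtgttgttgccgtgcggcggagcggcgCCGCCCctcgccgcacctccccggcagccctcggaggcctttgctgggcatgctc

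The Heca window held 2 matches to the full palindromic element TGACGTCA, which begin 153 and 117 bases before the start, and 1 further TGACG on the other strand at 46 bases. At least 1 full element was found in 1.55% of all 32851 windows and in 2.62% of the 13192 windows of tested genes, and 2 or more in 9 of these (0.0682%). The shorter TGACG, which lies inside the full element and is counted on both strands, was in 26.3% of the windows of tested genes. Among the other members it was found in 1 window, that of the first Egfem1 start, 197 bases upstream. Heca and Lnpep each had 4 matches to GGGCGG (at least 1 in 56.7% of windows) and 25 CpG dinucleotides, against a median of 15. The first Gdpd2 start and Rbm41 had 2 and 3 CpG and a match to TATAAA (in 6.38% of windows), at 207 and 129 bases upstream, while the second Gdpd2 start had 7 CpG and no TATAAA. No window of the 6 genes held the AP-1 motif TGANTCA (4.18% of windows), the forkhead motif TGTTTAC (2.02%) or the Kaiso motif TCCTGCNA (4.08%). The letters CGCG, also searched, were in the windows of Heca, Lnpep and both Egfem1 starts (60.2% of windows), and not in those of Tmem255a, Gdpd2 and Rbm41. All motifs were searched on both strands, and these are matches of letters and not measured binding.

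Total counts per library ranged from 9673038 to 11850741. Counts of 3 were worth 0.250 to 0.304 CPM, the upper limit for a gene with no reads. All counts of the 6 genes lay above that, between 26 and 486 reads. Foxp2 was at 34.9, 24.0 and 28.6 CPM in the CFA libraries and at 28.3, 29.3 and 43.7 CPM in the saline libraries. Saline replicate 3 had the smallest total, and leaving it out raised the number of genes called from 0 to 5. It also stood apart from saline replicates 1 and 2 in pairwise comparison. The chi-square over its degrees of freedom was 48.6 and 45.4 with them, against 20.3 between those 2 libraries. In the comparison of CFA with saline over all genes, edgeR (quasi-likelihood F test) gave 0 of 13560 genes (0%) with adjusted p under 0.05 and 437 (3.22%) with unadjusted p under 0.05. DESeq2 called 5 genes and limma-voom 0. All 6 genes were lower in every CFA library than in every saline library, which describes the chosen genes and tests nothing. Over all tested genes this held for 538 (3.97%), and the opposite for 481 (3.55%). None of the 6 was called in this fit. Heca was among the 5 genes called without saline replicate 3, and Heca and Tmem255a were among the 5 of DESeq2. The genes were chosen on this same comparison, so such calls are no evidence for them.

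Heca showed the largest fold difference of the 6. The gene lies on chromosome 10 (17900466 to 17948067, minus strand, mm10), and its model in the table had 4 exons and 3667 exonic bases. Its reads numbered 26, 41 and 46 in CFA replicates 1, 2 and 3, which is 2.16, 3.62 and 4.42 CPM. In saline replicates 1, 2 and 3 it had 213, 216 and 88 reads, or 19.1, 20.0 and 8.92 CPM. All CFA libraries were low, and saline replicate 3 stood below the other saline libraries but above every CFA library. The mean was 3.40 ± 1.14 CPM with CFA and 16 ± 6.15 CPM with saline (SD, n = 3 each), a 4.71-fold higher saline mean. The log2 fold change, CFA minus saline, was -2.24 ± 0.41 (SE). The closest libraries of the groups were CFA replicate 3 and saline replicate 3. Their exact 95% Poisson intervals, which cover counting error only, ran from 3.24 to 5.90 CPM and from 7.15 to 10.99 CPM and did not meet. Such intervals, here and below, leave out the spread between libraries and do not test the difference that chose the genes.

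Tmem255a followed Heca in the order of its saline libraries. It lies on chromosome X (38196573 to 38252481, minus strand), with 10 exons and 4155 exonic bases in the table. Its level was 8.74, 15.4 and 10.1 CPM in the CFA libraries and 31.7, 42.7 and 22.5 CPM in the saline libraries. Saline replicate 3 was again the lowest of its group, and CFA replicate 2 was the highest of the CFA libraries. The means were 11.4 ± 3.54 and 32.3 ± 10.1 CPM, with a log2 fold change of -1.50 ± 0.30. The counting intervals of the closest libraries, 13.2 to 17.9 CPM in CFA replicate 2 and 19.6 to 25.7 CPM in saline replicate 3, did not meet.

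Tmem255a has to be read beside Zbtb33, which runs toward it from the opposite strand. Zbtb33 encodes Kaiso, a zinc finger protein that binds methylated DNA. The models share 474 bases (chrX:38196573-38197046), which are 11.4% of the exonic bases of Tmem255a and 9.25% of those of Zbtb33. All 474 bases are annotated as UTR of both genes in GENCODE M21, at the 3′ end of each, and none as coding. The kit does not mark strand, and how reads in shared bases were counted is not given in the sources used here. Zbtb33 had 45, 32 and 19 reads with CFA and 25, 30 and 29 with saline. Its mean was 2.80 ± 0.959 CPM with CFA and 2.65 ± 0.369 CPM with saline, and the groups overlapped. The log2 fold change of Zbtb33 was 0.08 ± 0.61 (edgeR, adjusted p = 1). Zbtb33 did not pass the test, and the part of reads from the shared bases in the Tmem255a values was not tested.

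Gdpd2 had the most reads of the 6 genes in saline replicates 1 and 3. It lies on chromosome X (100729847 to 100738901, plus strand), with 16 exons and 2773 exonic bases. The CFA libraries were at 21.3, 16.1 and 9.81 CPM and the saline libraries at 43.5, 26.6 and 48.3 CPM. Here saline replicate 2 was the low library of its group and CFA replicate 1 the high one of its own. The means were 15.8 ± 5.76 and 39.5 ± 11.4 CPM, with a log2 fold change of -1.32 ± 0.30. The ratio between the closest libraries of the groups, 1.25, was the smallest of the 6, and the counting intervals of the closest libraries met, with 18.8 to 24.1 CPM in CFA replicate 1 and 23.6 to 29.9 CPM in saline replicate 2. On the opposite strand GENCODE M21 places the non-coding transcript Gm14866, not analysed here, over 799 exonic bases of Gdpd2 (28.8%). Reads from that transcript cannot be told apart from reads of Gdpd2.

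**Figure D1:**
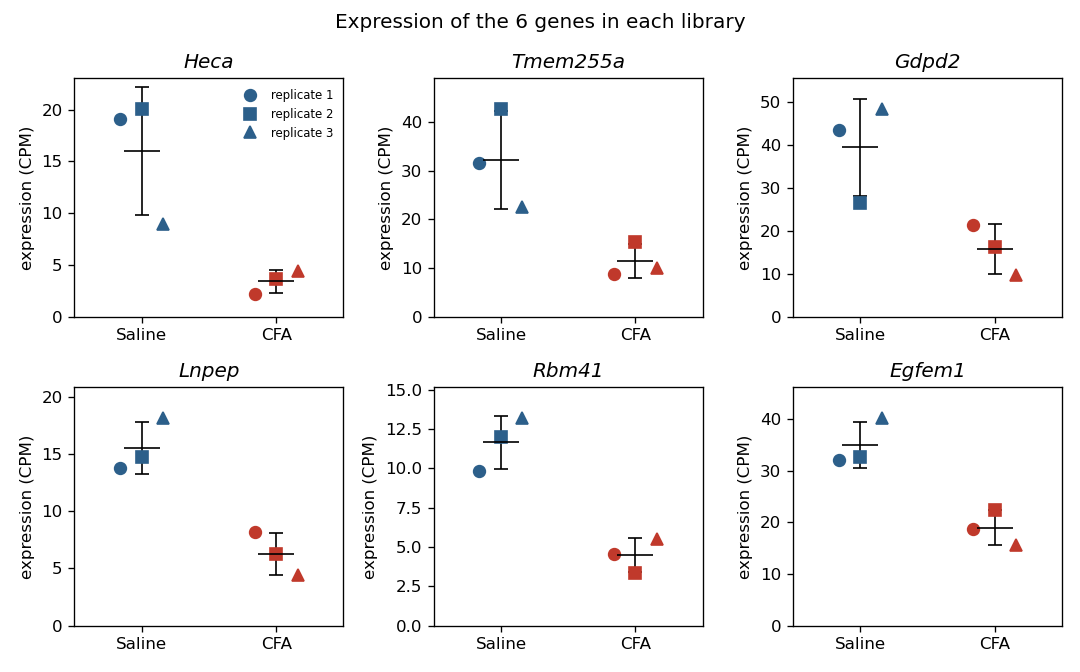
Expression in CPM (linear axis from 0) of each of the 6 genes in the 3 saline and 3 CFA libraries. Points are libraries, with symbols for the replicate number, and bars show the mean ± SD. Every CFA point lies below every saline point, by the choice of the genes, with the largest ratio between the closest libraries in Heca (4.42 against 8.92 CPM) and the smallest in Gdpd2 (21.3 against 26.6 CPM).

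Lnpep was tighter than Heca and Gdpd2 within the groups. It lies on chromosome 17 (17527723 to 17624489, minus strand), with 18 exons and 5181 exonic bases. The CFA libraries were at 8.15, 6.26 and 4.42 CPM and the saline libraries at 13.8, 14.7 and 18.1 CPM. Saline replicate 3 was the highest library, opposite to its place for Heca, and CFA replicate 3 was the lowest. The means were 6.28 ± 1.87 and 15.6 ± 2.29 CPM, with a log2 fold change of -1.30 ± 0.33. GENCODE M21 holds 8963 exonic bases of Lnpep that the model in the table lacks, so reads there did not enter its count. The same limit holds for 2580 bases of Heca, 1868 of Gdpd2, 1724 of Rbm41, 1364 of Egfem1 and 384 of Tmem255a.

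Rbm41 was the lowest of the 6 per exonic length. It lies on chromosome X (139889511 to 139998595, minus strand), with 10 exons and 6759 exonic bases. It was at 4.58, 3.35 and 5.48 CPM in the CFA libraries and at 9.84, 11.96 and 13.2 CPM in the saline libraries. Within each group the libraries were close together. The means were 4.47 ± 1.07 and 11.7 ± 1.69 CPM, with a log2 fold change of -1.38 ± 0.37. The counts behind these values were 38 to 57 reads in CFA and 110 to 130 reads in saline libraries.

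Egfem1 had the smallest fold change and the smallest spread. It lies on chromosome 3 (29082577 to 29691056, plus strand), where its 16 exons with 2813 exonic bases are spread over 608.5 kb. Its level was 18.8, 22.4 and 15.7 CPM in the CFA libraries and 32.1, 32.6 and 40.1 CPM in the saline libraries. The saline libraries were all above 30 CPM and the CFA libraries all below 25 CPM. The means were 18.96 ± 3.37 and 34.96 ± 4.48 CPM, with a log2 fold change of -0.88 ± 0.23.

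Among genes lower in CFA whose mean log2 CPM reached 2 and whose groups did not overlap, ranked by p, Heca was 1st, Tmem255a 2nd, Gdpd2 4th, Lnpep 8th, Egfem1 9th and Rbm41 10th. Qk, Nrp2, Tada2b and Brd1, at ranks 3, 5, 6 and 7, met the same conditions and are not among the 6, so these conditions alone do not define the set. Their log2 fold changes were -1.21, -1.02, -1.25 and -0.95. Next after Rbm41 came Xkr6, with a log2 fold change of -1.21, at 7.32, 13.6 and 10.6 CPM in the CFA libraries and 25.7, 15.1 and 31.8 CPM in the saline libraries.

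Levels of different genes were compared per kilobase of exonic length. In saline libraries Gdpd2 (14.2 ± 4.11 CPM per kb) and Egfem1 (12.4 ± 1.59) were highest and did not differ beyond their spread. Tmem255a followed at 7.77 ± 2.43, and then Heca (4.36 ± 1.68) and Lnpep (3.00 ± 0.442), and the ranges of mean ± SD overlapped between Tmem255a and Heca and between Heca and Lnpep. Rbm41 was lowest at 1.73 ± 0.250, with a range below that of Lnpep. In CFA libraries the order was Egfem1 (6.74 ± 1.20), Gdpd2 (5.68 ± 2.08), Tmem255a (2.75 ± 0.852), Lnpep (1.21 ± 0.360), Heca (0.927 ± 0.312) and Rbm41 (0.661 ± 0.158). In this order the ranges of mean ± SD were apart between Gdpd2 and Tmem255a, narrowly, and between Tmem255a and Lnpep, and they overlapped between the other neighbours. Heca stood below Lnpep with CFA and above it with saline, each time by less than the spread. The median over tested genes was 10.1 CPM per kb over all libraries, so the 4 lowest of the 6 genes were below it in both groups.

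The spread between libraries of a group differed among the 6 genes. On the log2 CPM scale the SD within groups was 0.578 for Heca, 0.511 for Gdpd2 and 0.44 for Tmem255a. It was 0.336 for Lnpep, 0.285 for Rbm41 and 0.22 for Egfem1. The median over 11373 tested genes whose mean log2 CPM reached 2 was 0.275, so 5 of the 6 genes lay above it, Rbm41 only narrowly, and Egfem1 below. The genes behind this median were not matched in level, and counting error adds more spread at low counts. The comparison therefore does not show that the 6 genes vary more than genes of like level.

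Deviations from the group means differed between the 6 genes without clear classes. With the group means removed, the root-mean-square difference in log2 CPM over the 6 libraries was 0.205 between Lnpep and Egfem1 and 0.250 between Gdpd2 and Lnpep. It was 0.326 between Heca and Tmem255a, 0.396 between Tmem255a and Egfem1 and 0.543 between Gdpd2 and Rbm41, and it was largest, 0.838, between Heca and Gdpd2. In Heca and Tmem255a, saline replicate 3 was the lowest saline library and CFA replicate 1 the lowest CFA library. In Gdpd2, Lnpep, Rbm41 and Egfem1, saline replicate 3 was the highest saline library. CFA replicate 3 was the lowest CFA library for Gdpd2, Lnpep and Egfem1 and the highest for Rbm41. With 3 libraries a group these profiles are descriptions.

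**Figure D2:**
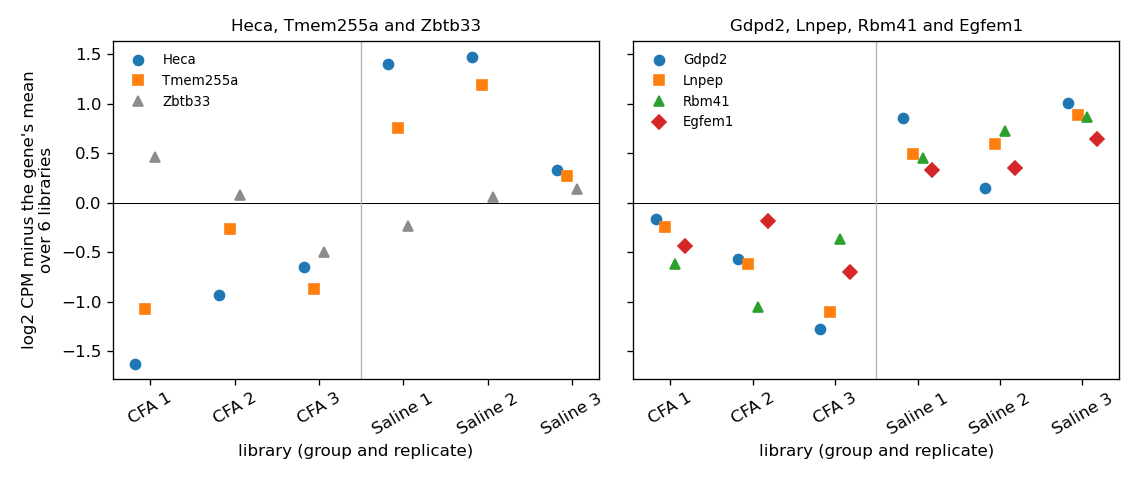
Log2 CPM of each gene minus its mean over the 6 libraries (vertical axis) in each library (horizontal axis, CFA left and saline right of the grey line). Left, Heca, Tmem255a and Zbtb33, and right, Gdpd2, Lnpep, Rbm41 and Egfem1. In saline replicate 3 Heca and Tmem255a are at 0.33 and 0.27, the lowest of their saline values, while Gdpd2, Lnpep, Rbm41 and Egfem1 reach their highest, 0.65 to 1.01, and Zbtb33 stays between -0.50 and 0.47 in all libraries.

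Genes with the most similar profile were sought among the same 11373 genes, by the root-mean-square difference of log2 CPM after each gene's mean over the 6 libraries was removed. For Tmem255a they were Mitf (0.17), a transcription factor of pigment cells, Pcdhb4 (0.188), a clustered protocadherin, and Epb4.1l4b (0.291), against a median of 0.854 over all genes. Pcdhb4 (0.50) and Epb4.1l4b (0.51) were also 2 of the 3 genes nearest to Heca, after Tmem255a itself (0.466). For Lnpep they were Fbln1 (0.101), an extracellular matrix protein, Gdpd2 (0.25) and Lrrc1 (0.28), with a median of 0.767. Gdpd2 was nearest to E030024N20Rik (0.24), Lnpep (0.25) and Ptpn21 (0.281). Lrrc1 (0.088) was the gene nearest to Egfem1, followed by A230057D06Rik (0.114) and Sowahc (0.116). Rbm41 was nearest to Nrp2 (0.25), a semaphorin co-receptor, Shisa2 (0.268) and Trpm3 (0.285), a cation channel. Likeness over 6 libraries includes the difference between the groups, so it partly restates that difference.

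Genes beside the 6 on their chromosomes were read for comparison. For each gene the 2 nearest tested genes on each side were taken, 24 in all. Their starts lay from 6.78 kb (Zbtb33) to 3140 kb (Nmbr, near Heca) from that of the member, so some are not close by. edgeR called 0 of the 24 (smallest adjusted p 1, and 0 with unadjusted p under 0.05), and DESeq2 and limma-voom called 0. Of the 24, 9 were lower and 15 higher in their fitted value, and their median log2 fold change was 0.04, against a median of -0.0011 over all tested genes. None was lower in every CFA than in every saline library (background 3.97%), and 1 was higher (background 3.55%), the Rbm41 neighbour Morc4, with a log2 fold change of 0.33 ± 0.37. Around Heca, Nmbr, Cited2 (a transcriptional coactivator), Abracl and Reps1 had log2 fold changes of -0.25 ± 0.67, -0.18 ± 0.27, -0.20 ± 0.25 and 0.17 ± 0.23. Dlg3, a postsynaptic scaffold beside Gdpd2, was at 227, 143 and 185 CPM with CFA and 134, 145 and 145 CPM with saline, so that the groups overlapped. The most negative neighbour was Tbc1d8b beside Rbm41, at -0.95 ± 0.45, with overlapping groups.

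Of the 6 genes 3 are X-linked, so transcripts that differ by sex were read in each library. Xist, which silences an X chromosome in females, had 0 CPM in 5 libraries and 0.961 CPM in CFA replicate 3. The Y-linked genes were expressed in every library. Ddx3y, a Y-linked RNA helicase, was at 91.0, 81.0 and 76.4 CPM with CFA and 82.6, 69.1 and 113 CPM with saline. Eif2s3y, a translation initiation factor, was at 197, 211 and 157 CPM with CFA and 162, 204 and 255 CPM with saline. Of 8 tested sex-linked genes edgeR called 0, with 0 at unadjusted p under 0.05 (DESeq2 and limma-voom called 0), and their median log2 fold change was -0.14. Kdm5d, a Y-linked histone demethylase, was the 1 of the 8 that was lower in every CFA library (background 3.97%), at 24.3, 23.2 and 20.96 against 37.1, 27.7 and 26.8 CPM. Over the 466 tested X-linked genes the median log2 fold change was -0.034 and 56.7% were negative, against 0 and 49.97% over 13089 autosomal genes. These X-linked and autosomal values are given as a description.

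Genes related to the 6 by family or function were counted next, from 6 lists with 91 genes, of which 72 were tested. edgeR called 0 of the 72 (smallest adjusted p 1), and 1, Gpcpd1, had unadjusted p under 0.05 (background 3.22%). DESeq2 and limma-voom also called 0 of the 72. There were 39 negative and 33 positive log2 fold changes, with a median of -0.0087. In 3 genes (Npepps, Emilin1 and Ctnnd2) every CFA library was below every saline library, and in 3 (Gpcpd1, Rptor and Emid1) above, which is near the background of 3.97% and 3.55%.

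Among mTOR complex 1 and Headcase-Unkempt genes, 9 of 15 were negative, with a median log2 fold change of -0.0038. Unk, the mouse Unkempt, was at 37.2, 31.5 and 32.2 CPM with CFA and 31.3, 24.2 and 45.7 CPM with saline, and the groups overlapped. The genes with the smallest p were Unkl, a relative of Unk, with a log2 fold change of 0.35 ± 0.26, and Tsc2, an inhibitor of mTOR complex 1, with 0.30 ± 0.25. Rptor, the scaffold subunit of the complex, was at 59.7, 60.8 and 61.2 CPM with CFA and at 54.6, 45.0 and 56.5 CPM with saline. It was the 1 gene of this list whose groups did not overlap, with a log2 fold change of 0.22 ± 0.19.

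Relatives and vesicle partners of Lnpep had a median of -0.01 over 16 tested genes, 9 of them negative. Npepps, the cytosolic relative that is abundant in brain, was at 92.35, 88.6 and 90.0 CPM with CFA and 92.42, 102 and 98.6 CPM with saline. Its log2 fold change was -0.11 ± 0.16, so the groups were apart by a margin far smaller than this error. Erap1, the relative that trims peptides in the endoplasmic reticulum, had a log2 fold change of 0.16 ± 0.48. Slc2a4, which encodes GLUT4, had 0 counts in all 6 libraries. The genes with the smallest p were Sort1, which sorts cargo into these vesicles, and Aopep, another aminopeptidase (listed under its older symbol 2010111I01Rik), with log2 fold changes of 0.26 ± 0.17 and 0.27 ± 0.21. Of the peptides that Lnpep cleaves, Oxt and Avp reached at most 0.0961 and 0.179 CPM, below the level of 3 counts, while Sst, the somatostatin gene and the other peptide gene of the list, was at 29.1 to 53.6 CPM with overlapping groups.

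Proteins of the minor spliceosome, beside which Rbm41 works, had a median of -0.02 over 17 tested genes, 11 of them negative. Rnpc3, the component most like Rbm41, was at 233, 253 and 144 CPM with CFA and 204, 244 and 269.8 CPM with saline. The groups overlapped, and the log2 fold change was -0.19 ± 0.21. Rbm48 and Zrsr1 had the smallest p, with log2 fold changes of -0.42 ± 0.25 and -0.48 ± 0.32. No gene of this list was without overlap between the groups.

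In the list for Gdpd2, which holds its family and other genes of lysophospholipid handling, 8 of 10 tested genes were positive, with a median of 0.11. The tested family members were Gde1, Gdpd1, Gdpd5 and Gpcpd1. Gde1, Gdpd1 and Gdpd5 had log2 fold changes of 0.03 ± 0.19, 0.08 ± 0.19 and 0.04 ± 0.21, all with overlapping groups. Gpcpd1, which releases choline from glycerophosphocholine, was at 153.5, 175 and 142 CPM with CFA and 114, 122 and 125.5 CPM with saline. Its log2 fold change was 0.38 ± 0.17, which did not pass the test over all genes. Prdx1, an antioxidant enzyme that activates the close relative Gdpd5, had -0.31 ± 0.22.

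Genes with EMI or EGF-like domains like Egfem1 had a median of 0.12 over 9 tested genes, 5 of them positive. Emid1 was at 4.99, 4.85 and 4.13 CPM with CFA and 1.97, 1.21 and 2.84 CPM with saline. Its log2 fold change was 1.22 ± 0.57 and did not pass the test. Emilin1, an elastic fibre protein, had -0.98 ± 0.73. Of the Tmem255a list, 4 of 5 tested genes were negative, with a median of -0.17. The paralog Tmem255b was at or below 0.353 CPM in every library and was not tested. Zbtb4, a relative of Zbtb33, and Ctnnd2, a catenin of synapses, had -0.35 ± 0.24 and -0.19 ± 0.16.

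**Figure D3:**
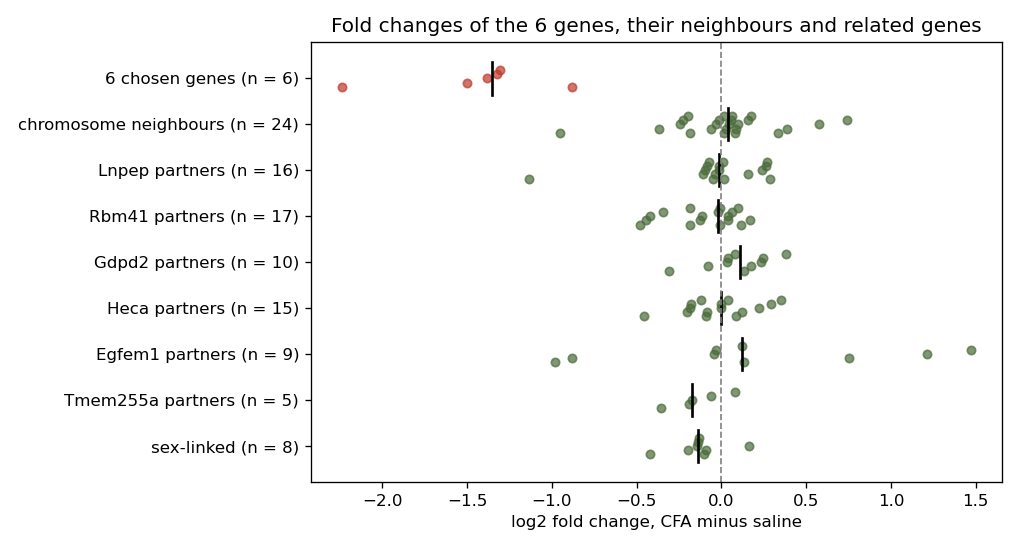
Log2 fold change, CFA minus saline (horizontal axis), of the 6 chosen genes, their tested neighbours on the chromosome, the tested genes of 6 lists of related genes and sex-linked genes (rows). Points are genes, black bars the medians and the dashed line the median of all tested genes. The 6 genes lie between -2.24 and -0.88 by their choice, while the medians of the other sets lie between -0.17 and 0.12.

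Markers of cell classes were read in the same libraries, since a difference in bulk nuclei may come from fewer nuclei of a type or from less RNA per nucleus, which cannot be told apart here. Of 11 marker lists, the summed CPM did not overlap between the groups for 3. Of single tested genes, 3.97% were lower and 3.55% higher in every CFA library, and no such share was taken for sums. Layer 6b markers were lower in CFA, at 121 to 196 against 198 to 310 CPM (4 of 5 genes negative, median log2 fold change -0.66). The closest sums were 196.2 and 198.1 CPM. This sum was made up mostly of Ctgf, at 104.6 to 161.5 against 162.5 to 261.6 CPM. Trh was also without overlap, while Cplx3, Nxph4 and Moxd1 overlapped between the groups. Upper layer markers were higher, at 383 to 416 against 305 to 351 CPM (4 of 6 genes positive), a sum made up mostly of Lamp5, the 1 gene of that list without overlap, at 271 to 304 against 200 to 265 CPM. Oligodendrocyte precursor markers summed to 26.0 to 38.8 against 16.04 to 22.9 CPM (3 of 4 tested genes positive), while Cspg4 of that list was lower in every CFA library, with a log2 fold change of -1.10 ± 0.62. Corticothalamic markers overlapped in their sum, at 782 to 887 against 752 to 1093 CPM (6 of 7 genes negative). Ntsr1 was the 1 gene of that list without overlap, at 11.6 to 15.6 against 18.75 to 22.8 CPM, with a log2 fold change of -0.58 ± 0.25. The sum of striatal projection neuron markers overlapped too, at 236 to 413 against 348 to 863 CPM, and was highest in saline replicate 1. In that list 7 of 7 tested genes were negative, and 2 of them were lower in every CFA library. Astrocyte markers were at 465 to 655 against 468 to 538 CPM (4 of 8 genes positive). Of these 8, Aldoc, Slc1a3 and Fgfr3 were higher in every CFA library and 0 were lower in every CFA library. Microglia markers were at 87.2 to 132 against 68.0 to 98.0 CPM (6 of 7 genes positive). Layer 5 (462 to 535 against 504 to 603 CPM, 5 of 5 genes negative) and inhibitory neuron markers (115 to 186 against 119 to 176 CPM, 7 of 8 positive) overlapped as well. So did oligodendrocyte (232 to 387 against 286 to 334 CPM, 3 of 5 negative) and vascular markers (2.29 to 7.32 against 4.66 to 5.38 CPM, 2 of 2 tested negative). edgeR called 0 marker genes, and no marker gene was at 0 in all libraries. In saline replicate 3, where Heca and Tmem255a were at their saline minimum, the sums of 7 of the 11 lists were the lowest of the saline libraries, among them the corticothalamic, layer 6b, upper layer and striatal lists. The oligodendrocyte sum was lowest there only narrowly, at 285.8 against 286.8 CPM in saline replicate 2. The layer 5 sum was the highest there, at 602.9 against 503.5 and 553.8 CPM, and the astrocyte, oligodendrocyte precursor and microglia sums lay between. Gdpd2, Lnpep, Rbm41 and Egfem1 were at their saline maximum in that same library. The part of these cell classes in the differences of the 6 genes was not tested.

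The differences of the 6 genes kept their sign in all 14 alternative settings. For Heca the log2 fold change lay between -2.26 and -2.20 under other scalings, filters, tools and terms, and between -2.53 (without saline replicate 3) and -1.9985 (without CFA replicate 1) when a library was left out. For Tmem255a the range with a library left out was -1.78 to -1.24, for Gdpd2 -1.61 to -1.07 and for Lnpep -1.54 to -1.10. For Rbm41 it was -1.55 to -1.21 and for Egfem1 -1.02 to -0.76. With no overlap between the groups the sign is fixed when a library is left out, so it is no further evidence.

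**Figure D4:**
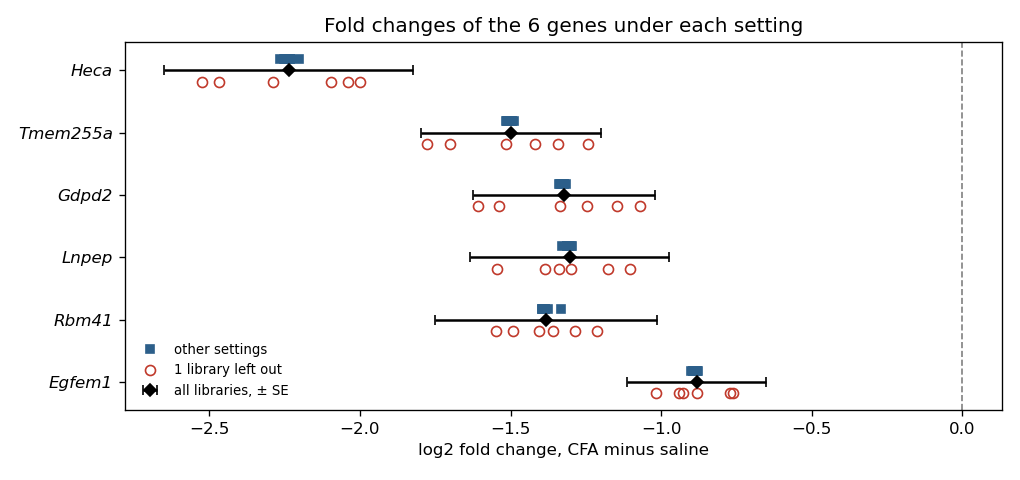
Log2 fold change, CFA minus saline (horizontal axis), of each of the 6 genes (rows) with all libraries (black, ± SE), under other scalings, filters, tools and model terms (blue squares) and with 1 library left out (open red circles). Values with a library left out spread more than those under other settings, from -2.53 to -1.9985 for Heca and from -1.02 to -0.76 for Egfem1.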

How the data were processed

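RNA of 10000 sorted nuclei per library was made into cDNA with the Smart-seq V4 kit (9 PCR cycles) and prepared with Nextera XT, per the labels' protocols. The deposited table holds the authors' raw counts per gene, 1 column per library, beside exon intervals, as its header shows. The submitters' processing notes name build mm10 and featureCounts 2.0.1, HISAT2 2.2.1, edgeR 3.32.1, SAMtools 1.13 and Trim Galore. For strand and multi-mapping the settings were not given in the sources used here.

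Groups and replicate numbers came from the sample titles. Counts were compared with edgeR 4.0.16 (R 4.3.3): TMM scaling, filterByExpr, the quasi-likelihood test with treatment as the only term, and Benjamini-Hochberg adjustment over all tested genes at 0.05. SEs came from the F statistic, and a prior count of 2 went into log2 CPM. Alternatives were RLE and library-size scaling, no filter, a filter of 5 CPM in 3 libraries, DESeq2 1.42.0 on the filtered genes, limma-voom (limma 3.58.1), a replicate term, removal of an exon-length trend (lowess span 0.3), a threshold of 0.1, and leaving out each library. The fits were tested on simulated counts with the same variability set for every gene, a simpler case than the data. There DESeq2 had a larger share of false calls than edgeR and limma-voom. The limit on that share was changed, and DESeq2 exempted from it, after its result was seen. DESeq2 was planned as an alternative, and its calls are read as such only. Libraries were compared in pairs and differed by more than sampling noise. The smallest chi-square over its degrees of freedom was 17 and the largest 48.6, between saline replicates 1 and 3. Repeated symbols (2 of them) were kept as separate rows. Promoters came from RefSeq (GRCm38.p6) and exon annotation from GENCODE M21, both of the build of the table. The members and the lists of related genes, neighbours and markers were chosen with earlier results of these data known. Beside the members and Zbtb33, named genes are set paralogs, neighbours, the 3 nearest profiles and sex-linked genes. The 2 genes of each list with the smallest p are named too. The others (Unk, Rptor, Slc2a4, Oxt, Avp and the single cell class markers other than Foxp2) were chosen after their values were seen. Aopep was found under its older symbol, and Cenatac was not matched.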

Additional observations from a re-analysis of the deposited data

How the results depend on the processing

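Without changes to the fit 0 genes were called. The count was 9 without a low-count filter (among them Heca, Tmem255a and Gdpd2), 5 in DESeq2 (among them Heca and Tmem255a) and 6 with the replicate block (among them Tmem255a). It lay between 0 and 5 when 1 library was left out, with 5 without saline replicate 3 (among them Heca). The cause of these changes in the count was not tested. The members were chosen on this comparison, so their calls in any setting are no evidence for them. The count was 0 under each other setting, including a threshold of 0.1. Deviations of same-numbered libraries from their group means correlated at -0.079, 0.025 and -0.069. No CFA library was closest to the saline library of its own number. These values show no pairing by replicate number, but 3 libraries a group cannot exclude it. The counts of related, neighbouring and sex-linked genes called stayed at 0 in every setting run, and the log2 fold changes of the 6 genes moved by less than their SD within groups. Leaving out 1 of 3 libraries can shift a group mean by only part of that SD. The limit could therefore hardly be passed, and staying within it is no evidence of stability. The lowest counts, 26 to 98 reads for Heca, Lnpep and Rbm41 in CFA libraries, limit the precision of those levels.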
